A study of Homo sapiens with 16 samples.

Results

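The γ-tubulin ChIP-seq peaks next to the centromere of chromosome 2 were examined. They are all peaks of the 4 deposited peak lists that lie on chromosome 2 and overlap the 10 Mb from 87000000 to 97000000 of the hg19 build, around the centromere gap from about 92326171 to 95326171. The rule took 306 of the 2933 nuclear peaks, all called by the authors as enriched over control, so the members were chosen by their position and by the enrichment that made them peaks. With the peaks on mitochondrial DNA, the lists hold 2962 peaks.

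MCF10A is a human cell line from breast epithelium. The 4 conditions were MCF10A cells and γTubulinsh-MCF10A cells, which stably express an shRNA against γ-tubulin under Zeocin selection, each harvested 1 h or 2 h past the release of a double thymidine block, which every group underwent. This block holds cells at the start of DNA replication. The shRNA lowers γ-tubulin without removing it, and the level of γ-tubulin was not measured in these files. A mixture of rabbit polyclonal antibodies to γ-tubulin was used for the immunoprecipitation. Each condition had 2 ChIP libraries and 2 libraries of whole cell extract, the sonicated DNA before immunoprecipitation, which makes 16 libraries. The authors deposited a single list for each condition. By the series' design text it was made from both ChIP libraries and is attached to the first of them, so no value below has an SD between replicates and no condition could be tested against another. The lists give no read totals, and hence the depth is known only in part, as described with the control background below.

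γ-Tubulin is best known for starting new microtubules at the centrosome, and it also enters the nucleus, where it is found on chromatin around S phase. A pericentromere is the DNA on either side of a centromere. It is rich in satellite repeats and in segmental duplications, and in hg19 it is assembled only in part. Where cells carry more copies of a sequence than the reference does, reads from all copies can pile up on the copy in the reference, in ChIP and in whole cell extract alike. Reads with more than 1 position in the reference were dropped by the authors, so such a pile-up can form only where the reference holds a single matching copy. The sequence and the gene annotation of hg19 were not used here, so no gene, repeat or motif under these peaks is named.

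The 306 peaks fell into 4 short blocks, all on the short arm side of the gap. No peak lay in the 1.67 Mb of the window on the long arm side. Peaks of any list were joined into a block when they lay within 100000 bp of each other, and the blocks were lettered from the one farthest from the gap. Block A spans 49380 bp, from 89830572 to 89879951, and holds 92 peaks. Block B spans 38795 bp, from 90371695 to 90410489, and holds 63. Block C is the shortest, with 20862 bp from 91595178 to 91616039, and holds 66. Block D spans 58593 bp, from 92267556 to 92326148, holds 85 peaks and ends 23 bp before the gap. The blocks cover 168 kb together, or 1.68% of the window, and the stretches without a peak between them measure 492 kb, 1185 kb and 652 kb. Assembly gaps other than the centromere gap were not looked up, so it was not tested whether these stretches can hold mapped reads.

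**Figure D1:**
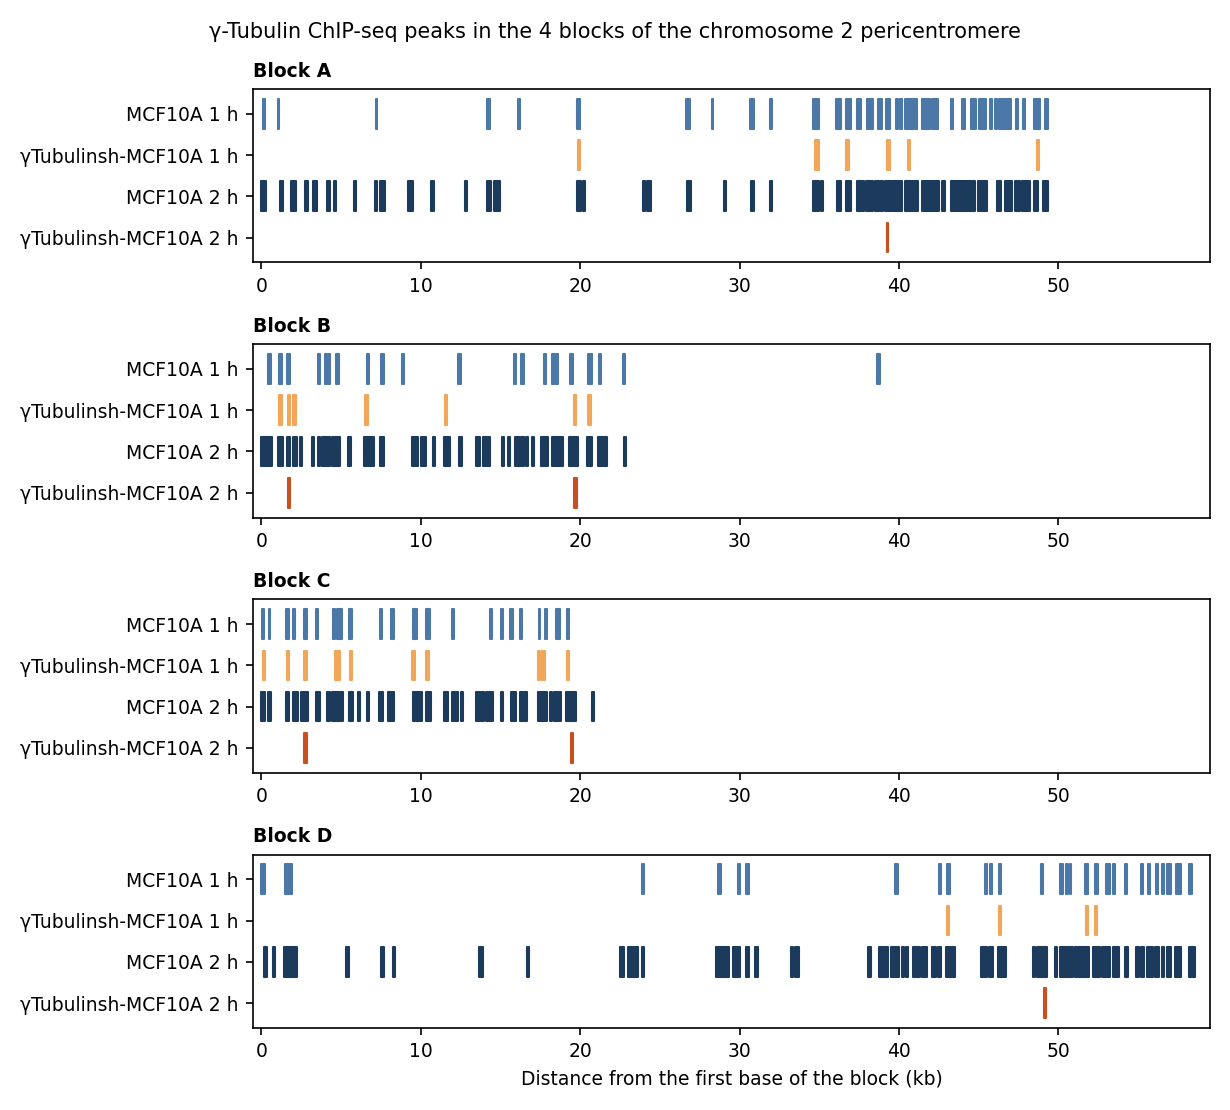
Map of the 306 peaks to scale in blocks A to D. The x axis is the distance in kb from the first base of the block, each row is the list of 1 condition, and each bar is a peak with its length. Both MCF10A lists place peaks along most of each block, while the γTubulinsh-MCF10A lists place 27 peaks after 1 h and 6 after 2 h in the same blocks.

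The window held more peaks for MCF10A than for γTubulinsh-MCF10A cells at both times. After 1 h there were 107 peaks in MCF10A and 27 in γTubulinsh-MCF10A cells, a ratio of 3.96, and after 2 h there were 166 and 6, a ratio of 27.7. Between 1 h and 2 h the number was higher by 59 in MCF10A cells, 1.55 times as many, and changed by -21 in γTubulinsh-MCF10A cells, to 0.222 times as many. The nuclear peaks outside the window had the same directions, with ratios of 3.56 after 1 h and 18.7 after 2 h between the cell lines, and 1.47 in MCF10A and 0.280 in γTubulinsh-MCF10A cells between the times.

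As a share of the nuclear peaks of its list, the window took 10.3% in MCF10A and 9.38% in γTubulinsh-MCF10A cells after 1 h, and 10.8% and 7.60% after 2 h. On chromosome 2 itself these peaks were the large majority. They made up 107 of 126 peaks in MCF10A cells after 1 h (84.9%), 27 of 32 in γTubulinsh-MCF10A cells after 1 h (84.4%), 166 of 181 in MCF10A cells after 2 h (91.7%) and 6 of 8 in γTubulinsh-MCF10A cells after 2 h (75.0%). The bases under the peaks were 20394 and 4331 bp after 1 h and 47627 and 828 bp after 2 h, so that covered length in MCF10A cells was 2.34 times as large after 2 h as after 1 h.

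The number of peaks depends on where each list was cut. When each list was reduced to its 79 nuclear peaks with the highest scores, the size of the shortest list, the window held 2 in MCF10A and 5 in γTubulinsh-MCF10A cells after 1 h, which turns the direction at that time, and 15 and 6 after 2 h. Joining peaks within 1000 bp of each other gave 37 and 30 joined peaks in MCF10A cells after 1 h and 2 h, which turns the direction between the times.

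The window's edges cut through no group of peaks. The first peak inside it, of MCF10A cells after 2 h, runs from 89830572 to 89830848 and has a score of 69 and a fold enrichment of 4.16. Fold enrichment is the ChIP pileup, that is the reads stacked at the summit, over the local control background, and the score is 10 times the −log10 q-value. The nearest peak before the window, from 85773966 to 85774085 in the same list, lies 1.23 Mb outside it and has a score of 51 and a fold enrichment of 5.29. The last peak inside, again of MCF10A cells after 2 h, runs from 92325729 to 92326148 and has a score of 387 and a fold enrichment of 4.42. Beyond the window the next peak, of MCF10A cells after 1 h, lies 10.5 Mb away, from 107517548 to 107517724, and has a score of 113 and a fold enrichment of 5.65.

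All 4 conditions had peaks in all 4 blocks, and in every block the order of the conditions was the same. Block A held 36 peaks in MCF10A and 6 in γTubulinsh-MCF10A cells after 1 h, and 49 and 1 after 2 h. In block B the numbers were 21 and 7 after 1 h, and 33 and 2 after 2 h. In block C they were 22 and 10, then 32 and 2. Block D, at the gap, held 28 and 4 after 1 h, and 52 and 1 after 2 h. The number in MCF10A cells after 2 h was 1.86 times that after 1 h in block D and 1.36, 1.57 and 1.46 times in blocks A, B and C.

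The γTubulinsh-MCF10A peaks after 1 h were spread over the blocks in other proportions than the MCF10A peaks. Block C held 37.0% of them, against 20.6% of the MCF10A peaks after 1 h, and block D held 14.8% against 26.2%. MCF10A cells after 1 h thus had 2.20 times as many peaks as γTubulinsh-MCF10A cells in block C and 7.0 times as many in block D. These proportions rest on 10 and 4 peaks of γTubulinsh-MCF10A cells.

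**Figure D2:**
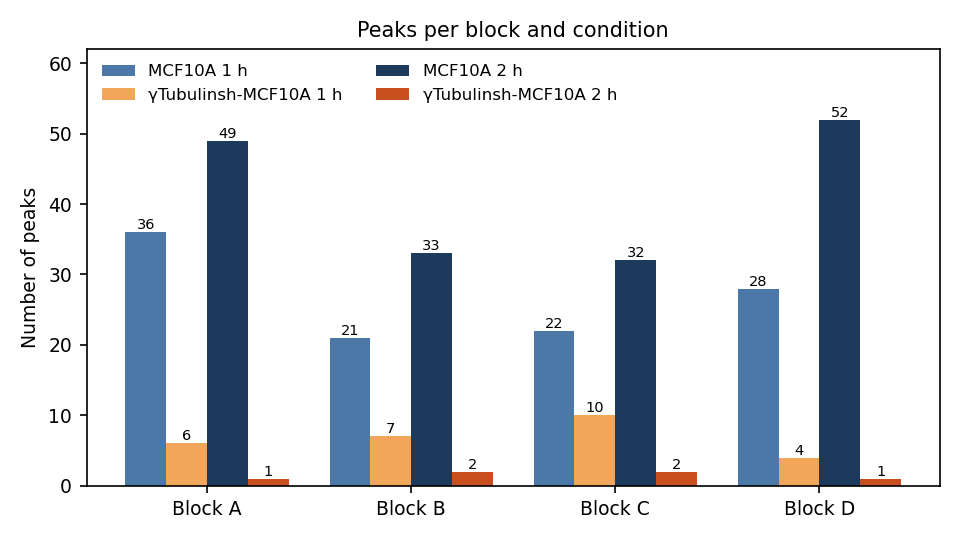
Number of peaks in blocks A to D for each of the 4 conditions, 1 bar and 1 list each. MCF10A cells after 2 h have the highest bar and γTubulinsh-MCF10A cells after 2 h the lowest in each block; block D rises from 28 to 52 in MCF10A cells.

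Over the full span of each block, block C was the most densely filled. It held 10.6 peaks per 10 kb in MCF10A cells after 1 h and 15.3 after 2 h, and 4.79 and 0.959 in γTubulinsh-MCF10A cells. The other blocks held 4.78 to 7.29 peaks per 10 kb in MCF10A cells after 1 h and 8.51 to 9.92 after 2 h. After 2 h the MCF10A peaks lay over 41.2% of the bases of block C, 28.2% of block A, 26.5% of block D and 24.8% of block B. After 1 h these shares were 17.4%, 16.9%, 8.54% and 8.82%. The span of block B reaches its end only through 1 weak MCF10A peak after 1 h, from 90410341 to 90410489. The MCF10A peaks after 2 h in block B end at 90394544. Its densities and shares are thus lower than over the stretch that most of its peaks fill, and its rank without that peak was not tested.

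Within blocks A and D the peaks were not evenly placed. In MCF10A cells after 1 h, 23 of the 36 peaks of block A and 19 of the 28 of block D lay in the last of 4 equal parts of the block, the one nearest to the gap. After 2 h the last parts held about as many, 22 in each block. The first part of block A went from 3 to 12 peaks, and the third part of block D from 5 to 17. The net gain of MCF10A peaks between the times was thus mostly in the parts of these blocks that held few peaks after 1 h. In the first part of block A the control background at the summits was low, with a median after 2 h of 2.10 times the genome background (defined below), against 8.12 in its last part.

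Peaks were longer after 2 h than after 1 h in MCF10A cells. The length ran from 110 bp through a median of 167 bp to 544 bp in MCF10A cells after 1 h, and from 120 through 229 to 1481 bp after 2 h. In γTubulinsh-MCF10A cells it ran from 111 through 147 to 332 bp after 1 h and from 115 through 132 to 190 bp after 2 h. The ranges overlap. A length of at least 400 bp was found in 5 of 107 MCF10A peaks after 1 h and 35 of 166 after 2 h. Among the 27 and 6 γTubulinsh-MCF10A peaks there were 0. Outside the window it was found in 60 of 928 and 164 of 1365 MCF10A peaks after 1 h and 2 h. The γTubulinsh-MCF10A lists had 7 of 261 and 4 of 73 there, so long peaks also occur in these cells. The longest peak after 1 h was in block A, from 89870956 to 89871499, and the longest after 2 h was in the same block, from 89873854 to 89875334. The latter was long and weak, its score being 53 and its fold enrichment 1.92. Of the MCF10A peaks after 1 h, 99 met exactly 1 peak after 2 h, and that peak was longer in 89, shorter in 9 and equal in 1. The ratio of the lengths had a median of 1.65 and ran from 0.724 to 12.0.

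**Figure D3:**
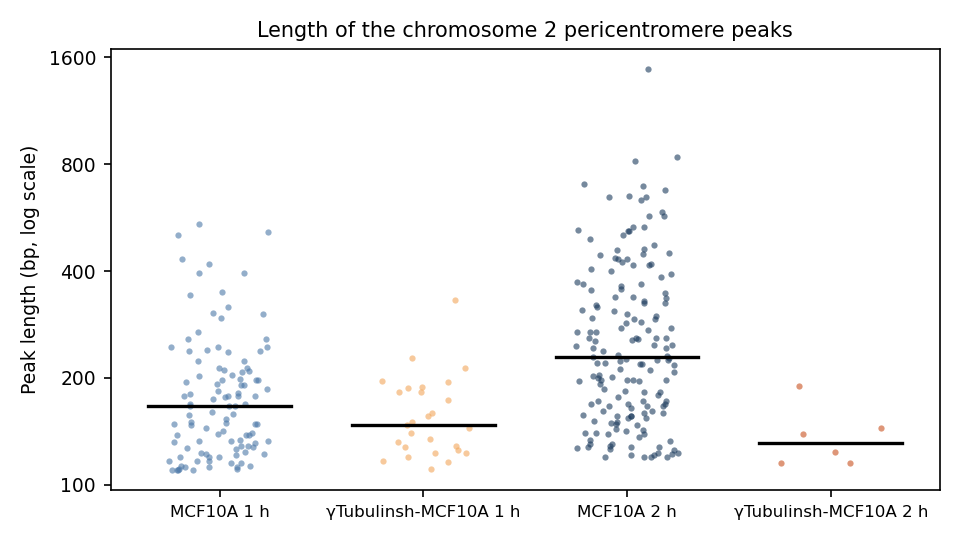
Peak length in bp on a log axis for each condition. Each point is 1 peak, spread sideways for sight, and the black line is the median of the list. The points at or above 400 bp are 5 peaks of MCF10A cells after 1 h and 35 after 2 h.

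Outside the window the median lengths were 150 and 179 bp in MCF10A cells after 1 h and 2 h, and 137 and 142 bp in γTubulinsh-MCF10A cells. The chromosome 2 peaks were therefore longer by the median than the other nuclear peaks pooled in both MCF10A lists and in γTubulinsh-MCF10A cells after 1 h, and shorter in γTubulinsh-MCF10A cells after 2 h, where they number 6.

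Neighbouring summits were closely spaced in the MCF10A lists. The median spacing was 729 bp after 1 h, with a range from 161 to 1184850 bp, and 611 bp after 2 h, with a range from 187 to 1200825 bp. The longest spacings are the stretches between blocks. In γTubulinsh-MCF10A cells the median was 2267 bp after 1 h, and after 2 h it was 503547 bp, since its 6 peaks lie in all 4 blocks. Within the blocks the MCF10A medians after 1 h were 620 bp in block A, 861 in block B, 742 in block C and 665 in block D. After 2 h they were 674, 604, 600 and 553 bp. The spacing was shorter after 2 h in blocks B, C and D and longer in block A. Outside the window the median spacing was 1564 and 1090 bp in MCF10A cells after 1 h and 2 h, both wider than in the window. In γTubulinsh-MCF10A cells after 1 h it was 2204 bp, slightly less than in the window.

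The median distance to the gap followed the share of peaks in each block. It was 1934 kb in MCF10A cells after 1 h and 731 kb after 2 h, and 731 kb in γTubulinsh-MCF10A cells after 1 h and 1331 kb after 2 h. With 4 blocks these medians fall in or between blocks B and C, and a few peaks move them by the length of the space between blocks: with only the peaks whose score is 85 or more (the median of all scores), the median in γTubulinsh-MCF10A cells after 1 h lay at 1952653 bp, over 5 peaks. The peak nearest to the gap lay 243 bp from it in MCF10A cells after 1 h, from 92325762 to 92325928, and 23 bp after 2 h. In γTubulinsh-MCF10A cells the nearest peaks lay farther off, at 6197 bp after 1 h and 9417 bp after 2 h.

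Nearly all of the fewer peaks of the γTubulinsh-MCF10A lists lay on peaks of the MCF10A lists. In γTubulinsh-MCF10A cells after 1 h, 24 of 27 peaks (88.9%) overlapped a MCF10A peak of the same time by at least 1 bp, beside 73.6% over all nuclear peaks of that list. From the other side this is 25 of the 107 MCF10A peaks (23.4%, beside 19.5%). All 27 overlapped a MCF10A peak after 2 h (100%, beside 78.1%), and 26 of the 166 MCF10A peaks after 2 h met one of them (15.7%, beside 13.1%). In γTubulinsh-MCF10A cells after 2 h, all 6 peaks overlapped a MCF10A peak of the same time (beside 65.8%), which 6 of the 166 met in turn (3.61%, beside 3.27%). The 3 peaks of γTubulinsh-MCF10A cells after 1 h without a MCF10A peak at that time were all in block B, from 90373688 to 90373883, from 90383231 to 90383353 and from 90391299 to 90391433. They had scores of 35, 121 and 18.

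The MCF10A peaks after 1 h were largely found again after 2 h. After 2 h 100 of the 107 peaks (93.5%) met a peak, beside 72.1% over all nuclear peaks, and 94 of the 166 peaks after 2 h (56.6%) met one after 1 h, beside 44.2%. The overlap was 18394 bp, which is 90.2% of the bases under the peaks after 1 h and 38.6% of those after 2 h. In 73 cases the peak after 1 h lay wholly inside a peak after 2 h, and the distance between summits had a median of 13 bp. For the γTubulinsh-MCF10A peaks, 4 of 27 after 1 h (14.8%, beside 13.2%) and 4 of 6 after 2 h (66.7%, beside 51.9%) met a peak of the other time. Across cell lines and times, 3 of the 107 MCF10A peaks after 1 h met 3 of the 6 γTubulinsh-MCF10A peaks after 2 h (2.80%, beside 3.38%, and 50%, beside 45.6%).

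All peaks of the window lie in the same 168 kb, and each share is set beside that of its list as a description. Peaks in no other list were 7 of 107 in MCF10A cells after 1 h (6.54%, beside 26.7%) and 70 of 166 after 2 h (42.2%, beside 53.6%). In γTubulinsh-MCF10A cells there were 0 at either time (beside 17.0% and 27.8%). A peak of each of the other 3 lists was met by 3 MCF10A peaks after 1 h (beside 2.61%), 3 γTubulinsh-MCF10A peaks after 1 h (beside 9.72%), 5 MCF10A peaks after 2 h (beside 1.83%) and 3 γTubulinsh-MCF10A peaks after 2 h (beside 35.4%).

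The 7 MCF10A peaks seen after 1 h alone, 5 in block A and 2 in block B, were short, with a median length of 112 bp against 172 bp for the 100 that met a peak after 2 h. Their median score was 37 against 87.5, with 96 as the highest, while their median fold enrichment was the higher one, 3.46 against 2.82. One of them, from 90410341 to 90410489, is the far end of block B, with a score of 26, and no other list has a peak in the last of the 4 equal parts of that block. The 72 peaks of MCF10A cells after 2 h without a peak after 1 h had a median length of 168 bp and a median score of 93, against 304 bp and 154 for the 94 that met one. Their fold enrichment was about the same, with medians of 4.05 and 4.21, and the control background under them was lower, at 4.72 against 7.60 times the genome background.

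When overlapping peaks of all lists were joined, the 306 peaks came to 172 places, with 53 in block A, 35 in block B, 32 in block C and 52 in block D. A peak of MCF10A cells after 2 h alone marked 70 places (40.7%), and both MCF10A lists without a γTubulinsh-MCF10A list marked 68 (39.5%). Places are given for the window only, and their numbers follow the lengths of the lists. By peaks, 42.2% of the MCF10A peaks after 2 h in the window met no other list, beside 53.6% over all nuclear peaks. Both MCF10A lists with γTubulinsh-MCF10A cells after 1 h marked 19 (11.0%). All 4 lists marked 5 places (2.91%), 1 in block A, 2 in block B, 2 in block C and 0 in block D. Of the rest, 7 had a peak of MCF10A cells after 1 h alone, 2 had γTubulinsh-MCF10A cells after 1 h with MCF10A cells after 2 h, and 1 had both MCF10A lists with γTubulinsh-MCF10A cells after 2 h.

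**Figure D4:**
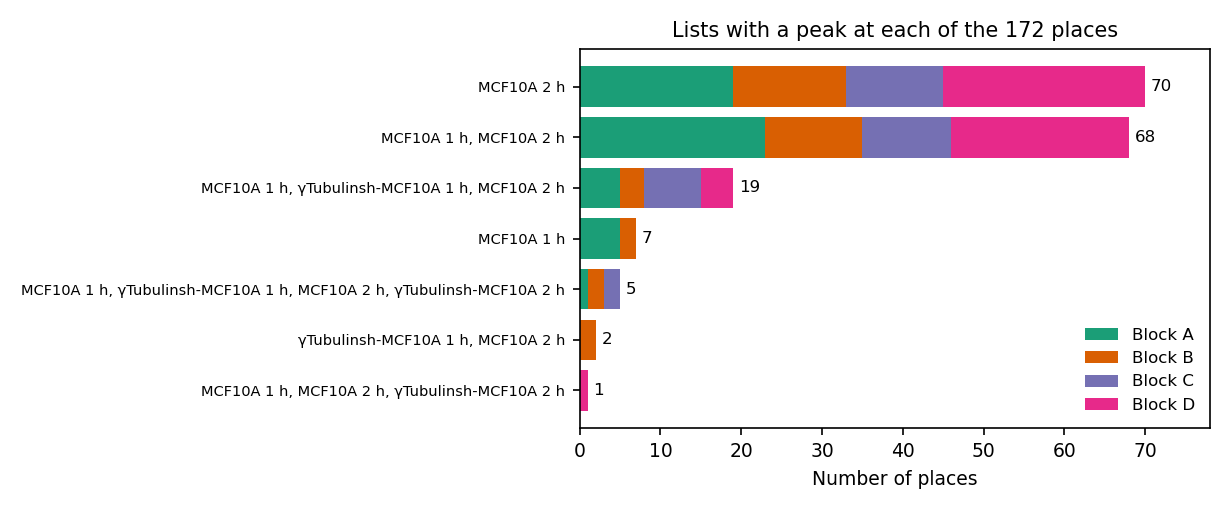
Number of places, out of 172, by which lists have a peak there, stacked by block. The 2 longest bars, 70 places of MCF10A cells after 2 h alone and 68 of both MCF10A lists, leave 34 places with other combinations.

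The place with the strongest peaks was one of those in all 4 lists. It lies in block A, from 89869709 to 89870081, and holds the highest score of the whole MCF10A 2 h list. Its score was 290 in MCF10A and 202 in γTubulinsh-MCF10A cells after 1 h, and 623 and 142 after 2 h. These scores rank 8 and 9 in the 1 h lists and 1 and 11 in the 2 h lists. The 4 summits lie within 10 bp of each other. Its fold enrichment was 4.52 and 3.25 after 1 h, and 9.17 and 3.0 after 2 h, so that MCF10A cells after 2 h stood above the other 3 lists. The ChIP pileup was 102 and 115 reads after 1 h and 114 and 104 reads after 2 h, numbers not set to the depth of each list. Over the genome background of its list (defined below) it was 72.9 and 89.6 times after 1 h, and 67.3 and 59.1 times after 2 h. The control background was the lowest in MCF10A cells after 2 h, with 11.5 reads, against 21.8 reads in MCF10A cells after 1 h, 34.7 in γTubulinsh-MCF10A cells after 1 h and 32.0 after 2 h.

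The other places found in all 4 lists had lower scores. In block B, the place from 90373286 to 90373518 had summits within 10 bp of each other, fold enrichments of 2.56 in MCF10A and 3.38 in γTubulinsh-MCF10A cells after 1 h, and of 4.31 and 2.46 after 2 h. Its ChIP pileup was 51 and 61 reads after 1 h and 53 and 51 reads after 2 h. Over the genome background these are 36.45 and 47.5 times after 1 h, and 31.3 and 29.0 times after 2 h. The place from 90390987 to 90391558 had fold enrichments of 3.93 and 2.03 after 1 h and of 4.72 and 3.37 after 2 h. Its summits are up to 300 bp apart, and its peaks of MCF10A and γTubulinsh-MCF10A cells after 1 h do not overlap each other, while both overlap the long peak of MCF10A cells after 2 h.

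In block C, the place from 91597646 to 91598093 had fold enrichments of 3.26 and 2.94 after 1 h and of 3.41 and 2.83 after 2 h, with summits within 47 bp. The place from 91614298 to 91614932 had 2.51 and 2.95 after 1 h and 4.99 and 3.37 after 2 h, with summits up to 247 bp apart. Its peak of γTubulinsh-MCF10A cells after 2 h, from 91614625 to 91614739, overlaps the long peak of MCF10A cells after 2 h but neither peak seen after 1 h. In all 5 places the highest fold enrichment was that of MCF10A cells after 2 h. After 1 h it was higher in MCF10A cells in 3 places and higher in γTubulinsh-MCF10A cells in the other two.

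Among the 10 highest scores of each list, chromosome 2 peaks were most numerous in MCF10A cells after 2 h. In that list 3 of the 10 highest scores were here, namely the block A place above and 2 peaks of block D, from 92291423 to 92291589 (score 520, fold enrichment 4.21) and from 92312704 to 92313096 (score 514, fold enrichment 4.68). A peak of block B, from 90387963 to 90388181, had the next score of the window, 421, with a fold enrichment of 10.5. The 10 highest scores included 1 chromosome 2 peak in either list after 1 h and 0 in γTubulinsh-MCF10A cells after 2 h. The window held 10.3% and 9.38% of all nuclear peaks of the MCF10A and γTubulinsh-MCF10A lists after 1 h, and 10.8% and 7.60% after 2 h. In these 3 lists the numbers among the 10 highest were thus near the window's share of the list. After the block A place, the highest scores of MCF10A cells after 1 h were 192 for the peak from 92319852 to 92320028 in block D and 185 for the peaks from 90375249 to 90375398 in block B and from 92291443 to 92291575 in block D. In γTubulinsh-MCF10A cells after 1 h the next was 121, for the block B peak from 90383231 to 90383353, and after 2 h it was 70, for the block B peak from 90391323 to 90391512.

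Fold enrichment over the whole window had medians of 2.86 in MCF10A and 2.51 in γTubulinsh-MCF10A cells after 1 h, and of 4.15 and 2.92 after 2 h. Its highest values were 7.16 and 4.25 after 1 h, and 11.6 and 3.37 after 2 h. The ranges of the 4 lists overlap, with lowest values between 1.55 and 1.73. Block D had the lowest median in every list, at 2.12 and 1.77 after 1 h and 2.94 and 1.66 after 2 h, whereas blocks A, B and C had medians between 3.10 and 3.22 in MCF10A cells after 1 h and between 4.31 and 4.66 after 2 h. Each list has its own depth and controls, so these values describe the calls and are not amounts of bound γ-tubulin.

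A control background at these peaks could be obtained from the lists. It is a level in reads as MACS2 scaled it, and not a count of whole cell extract reads at the summit. The ChIP pileup and the control background at a summit were solved from the peak's p-value and fold enrichment. Only whole numbers of reads were tried as pileups. In 100% of peaks of each list such a number gave the −log10 p-value to within 0.002, with a fitted scale for γTubulinsh-MCF10A cells after 2 h. The lowest control background of a list, 1.40 and 1.28 reads after 1 h and 1.69 and 1.66 reads after 2 h for MCF10A and γTubulinsh-MCF10A cells, was taken as its genome background, the level of an even spread of reads. From it, the reads kept for MCF10A cells after 2 h were 1.11 times those after 1 h. Those of γTubulinsh-MCF10A cells were 0.952 times the MCF10A number of 1 h after 1 h, and 1.20 times after 2 h. These are estimates and not read totals. They rest on the peaks at the lowest background, 21 and 4 after 1 h and 25 and 6 after 2 h for MCF10A and γTubulinsh-MCF10A cells. The part of depth in the number of peaks was not tested.

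The peaks of the window lay where the control background was itself high. The control background had a median of 12.7 and 16.1 times the genome background in MCF10A and γTubulinsh-MCF10A cells after 1 h, and of 6.81 and 11.5 times after 2 h. It was at least 3 times the genome background in 104 of 107 and 27 of 27 peaks after 1 h (97.2% and 100%), and in 142 of 166 and 6 of 6 after 2 h (85.5% and 100%). For nuclear peaks outside the window these shares were 80.9% and 89.7% after 1 h, and 73.8% and 61.6% after 2 h. The median control background outside was 10.4 and 23.8 times the genome background after 1 h and 6.29 and 9.64 times after 2 h. In γTubulinsh-MCF10A cells after 1 h the outside median was thus above that of the window, and in the other lists below it. The part of sequence copy number in the number and strength of these peaks was not tested.

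Block D, next to the gap, stood highest in the control. Its median control background was 42.2 and 65.9 times the genome background after 1 h and 21.0 and 45.2 times after 2 h, against 8.64 to 28.0 times after 1 h and 4.19 to 19.3 times after 2 h in blocks A, B and C. Its ChIP pileups were the highest as well, with medians of 140 and 152 reads after 1 h, and 114 and 133 reads after 2 h. The low fold enrichment of block D went with a higher ChIP pileup and a higher control background than in the other blocks.

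The control background at peaks called at both times was mostly lower after 2 h in MCF10A cells, and the ChIP pileup in reads was not. Summits of the MCF10A lists after 1 h and 2 h lay within 20 bp of each other in 59 pairs. The control background was lower after 2 h in 54 of the 59, with medians of 21.0 reads after 1 h and 14.2 reads after 2 h and a median ratio of 0.678. The ChIP pileup was lower after 2 h in 28 of the 59, with a median of 63.0 reads at both times and a median ratio of 1.03. Fold enrichment was higher after 2 h in 53 pairs, with medians of 2.86 and 4.21. Counted in reads, a higher fold enrichment after 2 h thus came with a lower control background at an unchanged median number of ChIP reads. Over the genome background of each list, however, the ChIP pileup was lower after 2 h in 55 of the 59 pairs.

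Expressed over the genome background of its list, the control was lower after 2 h in 57 pairs and the ChIP pileup in 55. Over the 5th percentile of the control background of its list, the numbers were 54 and 28, as in reads. The count for ChIP thus depends on the scale, and that for the control was between 54 and 57 under these scales. By block, the control was lower after 2 h in 24 of 25 pairs in block A, 7 of 10 in block B, 9 of 9 in block C and 14 of 15 in block D. The ChIP pileup was lower in 20 of 25 pairs in block A, 3 of 10 in block B, 4 of 9 in block C and 1 of 15 in block D. Outside the window, 430 such pairs had a lower control after 2 h in 84.2% and a lower ChIP pileup in 61.2%, with median ratios of 0.762 and 0.941. Pairs exist only where both lists called a peak.

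**Figure D5:**
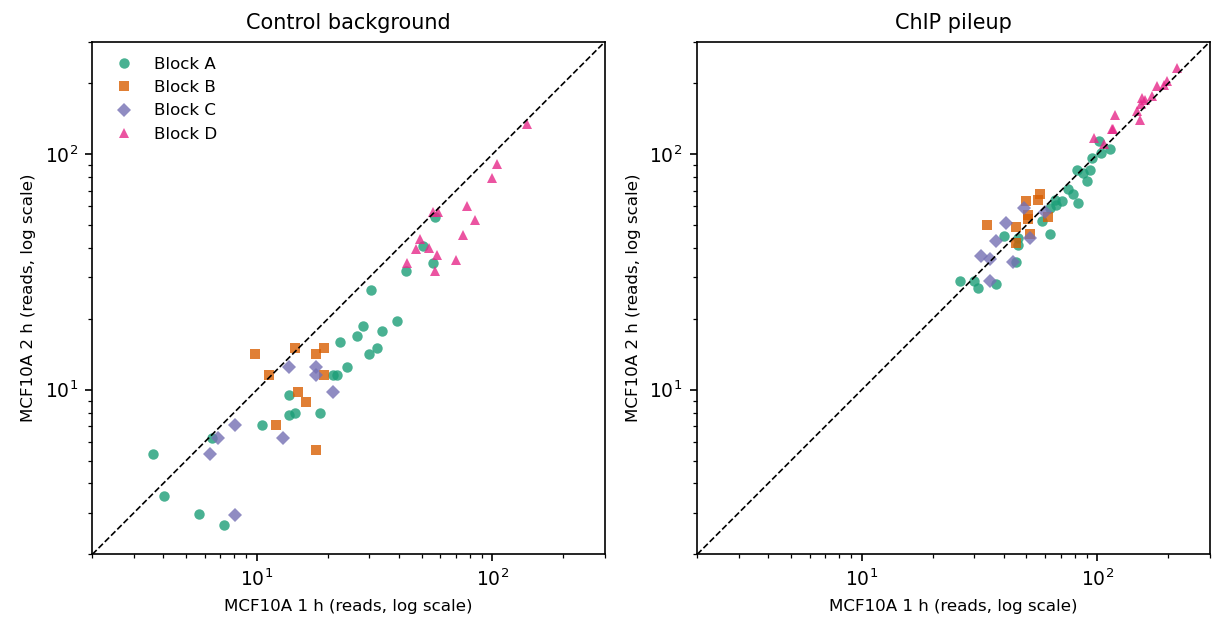
Control background (left) and ChIP pileup (right) in reads, on log axes, at the 59 summits that the MCF10A lists after 1 h (x axis) and 2 h (y axis) share within 20 bp; the dashed line marks equal values. On the left 54 points lie below the line, and on the right 28.

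Between the cell lines after 1 h there were 10 such pairs. The control was higher in γTubulinsh-MCF10A cells in 8 of them, with a median ratio of 1.26, and the ChIP pileup was lower in 2, with a median ratio of 1.12. Fold enrichment had medians of 2.76 in MCF10A and 2.94 in γTubulinsh-MCF10A cells, and was higher in the latter in 3 pairs. Outside the window, 123 such pairs after 1 h had a lower control in γTubulinsh-MCF10A cells in 8.13%, with a median ratio of 1.24. The higher control was thus not particular to the window. The ChIP pileup of these 123 pairs was lower in γTubulinsh-MCF10A cells in 49.6%, with a median ratio of 1.0. After 2 h the window had 3 pairs between the cell lines. The ChIP pileup was lower in γTubulinsh-MCF10A cells in all 3, with a median ratio of 0.861. The control was higher in all 3, with a median ratio of 1.65. Outside the window, 19 such pairs after 2 h had a lower ChIP pileup in γTubulinsh-MCF10A cells in 57.9%, with a median ratio of 0.991. Their control was lower in these cells in 10.5%, with a median ratio of 1.65. At the 10 summits shared after 1 h, γTubulinsh-MCF10A cells thus did not have fewer ChIP reads than MCF10A cells by the median. At the same time, 82 of the 107 MCF10A peaks had no γTubulinsh-MCF10A peak there. Whether those 82 places had fewer ChIP reads in γTubulinsh-MCF10A cells or a higher control background was not tested, since a list holds no value where it has no peak.

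The pericentromeres of chromosomes 4 and 10, in windows of 10 Mb around their gaps, from 44 to 54 Mb and from 34 to 44 Mb, also hold many peaks. The chromosome 4 window had 161 and 62 peaks in MCF10A and γTubulinsh-MCF10A cells after 1 h and 156 and 11 after 2 h. The chromosome 10 window had 114 and 23 after 1 h and 182 and 1 after 2 h. The chromosome 2 window was like that of chromosome 10 in the number of MCF10A peaks after 2 h against 1 h, with ratios of 1.55 and 1.6, while on chromosome 4 the ratio was 0.969. Median length in MCF10A cells after 1 h was 167 bp on chromosome 2, the shortest, 200 bp on chromosome 4 and 172 bp on chromosome 10. After 2 h it was 229, 314 and 195 bp. The median spacing in MCF10A cells after 1 h and 2 h was 729 and 611 bp on chromosome 2, shorter on chromosome 4 (514 and 564 bp) and longer on chromosome 10 (868 and 870 bp). The median control background of MCF10A peaks after 2 h was 6.81, 5.76 and 4.19 times the genome background on chromosomes 2, 4 and 10. Chromosome 2 was the highest only in that list. In MCF10A cells after 1 h the medians were 12.7, 13.3 and 10.4 times. In γTubulinsh-MCF10A cells they were 16.1, 25.5 and 18.7 times after 1 h. After 2 h they were 11.5, 17.5 and 22.9 times, with 1 peak on chromosome 10. None of these differences between chromosomes could be tested with 1 list per condition.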

How the data were processed

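Libraries were sequenced on the Ion Proton by the authors, mapped with Bowtie 1.0.0 keeping reads with 1 position (setting m of 1) on hg19 with the mitochondrial genome of Ensembl, and called peaks with MACS2 2.1.1, per the methods and the submitters' processing notes, which also name bedtools 2.17.0. The deposited positions and summits are in bp. The deposited score is the −log10 q-value times 10 without its decimals. The deposited fold enrichment is a ratio of ChIP pileup to control background. The authors also gave the −log10 p-value. They gave the −log10 q-value in a column of its own. The methods name the differential tool of MACS2 and a least length of 200 bp. The shortest deposited peak has 106 bp and the columns are those of calls against a control, which is how the lists were read here.

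Members, peak rule and alternatives were chosen with earlier results of these data known. Positions are counted from 1. Pileup and control background were solved under the formulas and default settings of MACS2, which the methods do not list for these peaks. Control values are as MACS2 scaled them. In the γTubulinsh-MCF10A 2 h list the p-values were met at a fitted scale of 0.943. Pileups of that list are given as whole reads before this scale, except in summit pairs and over the genome background. On simulated peaks 100% of pileups came out right in each list. These peaks were made with the same formulas, so they check the solving step and cannot show that MACS2 used these formulas here. Reads kept were taken from the genome background over the shortest peak, with the same genome size for all lists. Named peaks were those in all 4 lists, the 5 highest scores, the longest and the nearest to the gap in each list and those at the window's ends; the 3 γTubulinsh-MCF10A peaks without a MCF10A peak after 1 h and 1 of the 7 MCF10A peaks seen after 1 h alone were named after their values were seen. Blocks joined peaks within 100000 bp. No test was run, because each condition has 1 list. Alternatives were a score at or above the pooled median of 85, a length of at least 200 bp, joining within 1000 bp, equal numbers of top peaks, other overlap rules, a window without its outer 1 Mb and another genome background. The scales of the summit pairs and a distance of 50 bp were added after seeing the data. Single libraries were not analysed here. The scripts used matplotlib 3.10.9, scipy 1.17.1, pandas 2.3.3 and numpy 2.4.6 under Python 3.11.15.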

Additional observations from a re-analysis of the deposited data

Results flagged for a closer look

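The change in the number of chromosome 2 pericentromere peaks between 1 h and 2 h had opposite directions in the cell lines. It was 59 in MCF10A cells, from 107 to 166 peaks, and -21 in γTubulinsh-MCF10A cells, from 27 to 6 peaks. With a single list for each condition, this difference was not tested. The direction in MCF10A cells turned when peaks within 1000 bp were joined, with 37 after 1 h and 30 after 2 h.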

How the results depend on the processing

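Of 63 values under alternative settings, 25 moved, that is by over 1.5 times for a number of peaks or pairs and out of the 95% interval of the median otherwise. The other 38 did not, but these intervals are wide for distances to the gap and for short lists. Keeping scores at or above the pooled median took the median distance to the gap from 730768 to 1952653 bp in γTubulinsh-MCF10A cells after 1 h, from 1331000 to 2456257 bp after 2 h and from 1933758 to 1331000 bp in MCF10A cells after 1 h. Joining within 1000 bp took the median spacing of γTubulinsh-MCF10A cells after 1 h from 2267 to 4946 bp. The same score limit left 52 peaks in MCF10A and 5 in γTubulinsh-MCF10A cells after 1 h and 1 in γTubulinsh-MCF10A cells after 2 h, with a median spacing of 1375 and 256000 bp after 1 h. With this limit in both lists, the γTubulinsh-MCF10A peaks after 1 h that met a MCF10A peak numbered 3 after 1 h and 5 after 2 h, the MCF10A peaks after 1 h that met one after 2 h numbered 46, and the γTubulinsh-MCF10A peaks after 2 h that met a peak numbered 1 for each of the other lists. A length of at least 200 bp left 32 and 3 peaks after 1 h and 100 and 0 after 2 h. Joining within 1000 bp gave 37 and 30 MCF10A peaks after 1 h and 2 h, spaced by 3579 and 3465 bp. With equal numbers of top peaks the window held 2 and 5 peaks after 1 h and 15 in MCF10A cells after 2 h. With the 5th percentile of a list as genome background, the median control was 9.33 and 12.5 times the background after 1 h. Over the lowest control background, the ChIP pileup was lower after 2 h in 55 of the 59 pairs, an alternative chosen after seeing the data. Above the pooled median the γTubulinsh-MCF10A list after 2 h gave no spacing, with 1 peak. The cause of these moves was not tested, apart from the fewer peaks that a limit leaves by its construction. No paired analysis was possible because a list pools both libraries of its condition, and for the same reason no replicate could be left out. Precision is limited by the unknown depth of the single libraries, and in γTubulinsh-MCF10A cells by the 27 and 6 peaks.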
